A study of Gallus gallus with 4 samples.

Results

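The genes described here encode the ligands and receptors that steer growing axons: ephrins and Eph receptors, slits and robos, netrins and UNC5 receptors, and semaphorins with their neuropilin and plexin receptors. The choice of these genes was made with earlier results of these data known. They were picked by symbol, as every gene named in the deposited transcript table that began with the letters of one of these families. That gave 58 of 18295 named genes, made up of 29 ligands, 28 receptors and UNC50, which matched the UNC5 pattern by its letters only and encodes a membrane protein of the secretory pathway, not a guidance receptor. The 58 genes drew on 163 transcripts. DCC, the attractive netrin receptor, was also searched for and no named row matched it. EFNB1, EPHB2 and ROBO2, which stand for this group of genes, were all present and are given first in their families.

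Guidance molecules act at short or long range between cells: slits, most netrins and the class 3 semaphorins are secreted, whereas ephrins and the class 4, 6 and 7 semaphorins stay on the membrane. Eph receptors and ephrins signal in both directions between touching cells and sort cells as well as axons. In the developing retina their levels form gradients across the nasal-temporal and dorsal-ventral axes, and these gradients order the later projection of ganglion cell axons onto the brain.

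Retinas of chick embryos at embryonic day 5 were electroporated as explants with 2 reporter plasmids, ThrbCRM1-GFP and UbiqC-Tdt, and cultured for about 20 hours before sorting. ThrbCRM1 libraries come from cells sorted as positive for both GFP and Tdt, and UbiqC libraries from cells sorted as Tdt-positive, with 2 polyA RNA libraries of each, lettered A and B. The ThrbCRM1 element is a regulatory sequence of the thyroid hormone receptor gene THRB that is active in progenitors giving rise to cones and horizontal cells. All 4 libraries therefore hold electroporated cells of retinal explants, labelled as retinal progenitor cells, and both populations depend on plasmids that reach only part of the tissue. The labels do not say whether UbiqC cells were gated against GFP. They also do not say that A and B were grown apart, so the p-values reflect variation among these libraries, possibly of a technical kind.

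The libraries held 30959178 (ThrbCRM1 A), 16087500 (ThrbCRM1 B), 15673010 (UbiqC A) and 31659766 (UbiqC B) estimated counts. The GFP reporter followed the labels, with EGFP at 9805 and 15147 TPM (a level scaled for transcript length and library depth) in ThrbCRM1 and at 150 and 156 TPM in UbiqC. TdTomato, the reporter on which both populations were sorted, was at 3547 and 14505 TPM in ThrbCRM1 and at 2124 and 5637 TPM in UbiqC. Its levels differed widely between libraries of a population and overlapped between the populations. Markers of cone and horizontal restricted progenitors summed to 5223 and 5976 TPM in ThrbCRM1, against 601.0 and 599.7 TPM in UbiqC. By the test described next, 14 of 16 were higher in ThrbCRM1, where 20.1% of all tested genes were. Of the other restricted progenitor markers, 1 was lower, at a log2 fold change of -2.83, and 1 did not pass. Markers of retinal progenitors at large summed to 2922 and 2711 TPM in ThrbCRM1, against 4345 and 4301 TPM in UbiqC. Among these, 11 of 14 were lower, where 20.5% of all tested genes were, while 1 was higher and 2 did not pass. In these bulk libraries, fewer cells of a type and less RNA per cell cannot be told apart.

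Guidance genes as a group differed between the populations in both directions and in equal numbers. Genes were tested with edgeR's quasi-likelihood test on estimated counts summed per gene, adjusted over all 16774 genes that passed the filter on low counts, and a gene was called at an adjusted p below 0.05. All 58 guidance genes passed that filter, and the scarce NTN3 did so through its ThrbCRM1 libraries alone, where it was higher. ROBO3, called higher, and EPHA8, not called, also needed their ThrbCRM1 libraries, since UbiqC A fell below the filter for both. Of the 58 genes, 38 (65.5%) were called, where 40.7% of all tested genes were called. Of these, 19 were higher in ThrbCRM1, against a background of 20.1% of all tested genes, and 19 were lower, against a background of 20.5%. Calls with at least a 2-fold difference numbered 11 higher genes (background 8.73%) and 17 lower genes (background 8.6%). The median log2 fold change was 0.02 over the 58 genes and -0.00 over all tested genes, while the median of its absolute size was 0.93 over the 58 genes and 0.39 over all tested genes. Expression level bears on these shares: 28 of the 35 guidance genes with a mean of at least 5 TPM over all 4 libraries were called, and 47.2% of the 11082 tested genes at that level were called. TPM values of the libraries did not overlap between populations for 47 guidance genes, in a table where 71.9% of all tested genes did not overlap, so that count is near the background and does not set these genes apart.

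The summed level of the whole group moved little while its members moved a great deal. The 58 genes together held 1032 and 1008 TPM in ThrbCRM1, against 1089 and 1215 TPM in UbiqC. Ligands divided into 11 higher, 8 lower and 10 that did not pass, and receptors into 8 higher, 11 lower and 9 that did not pass. These counts by role, and those by family below, stand beside the background of 20.1% of all tested genes higher and 20.5% lower.

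**Figure D1:**
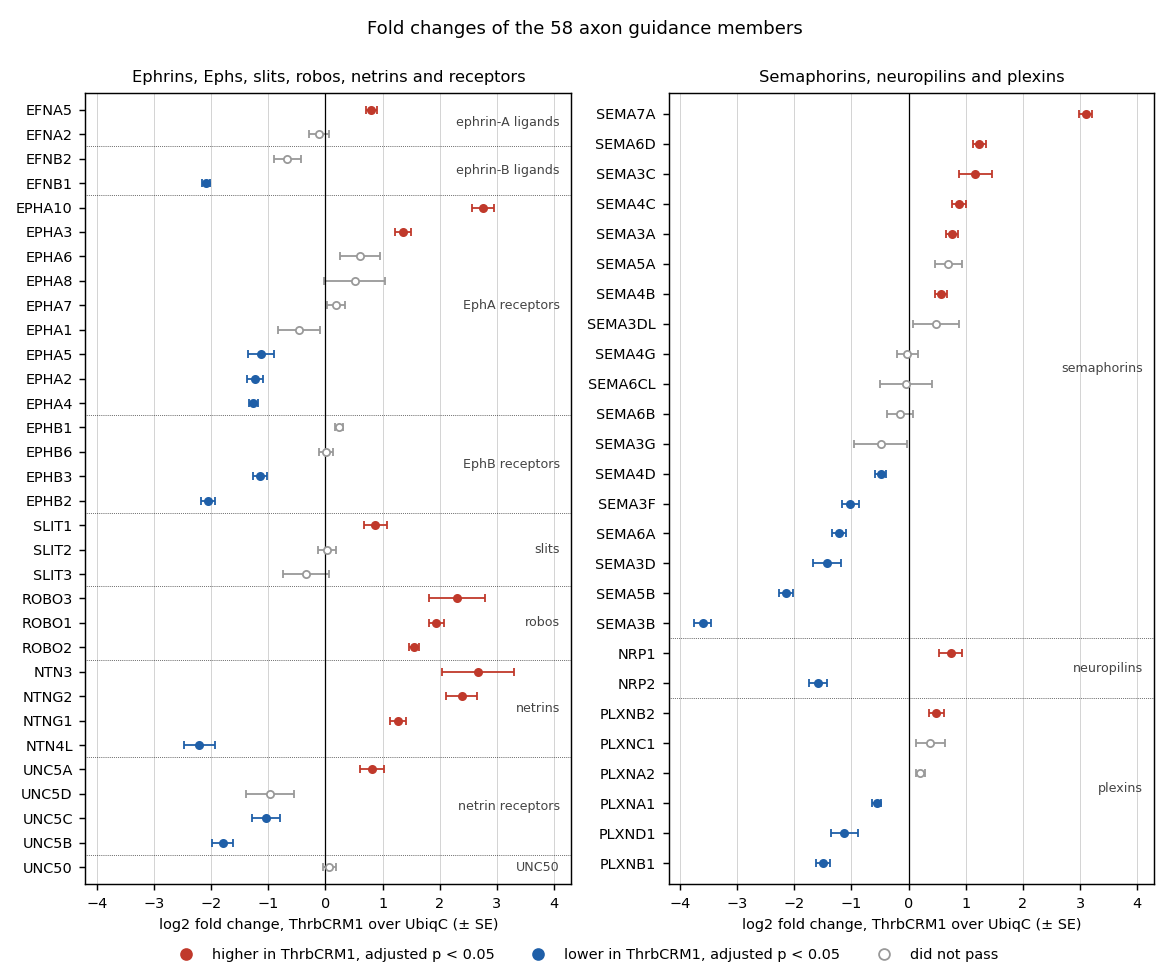
Log2 fold change (ThrbCRM1 over UbiqC, horizontal axis) with its standard error for each of the 58 genes, grouped by family. Red points are higher in ThrbCRM1 and blue points lower at an adjusted p below 0.05, and open grey points did not pass. Values run from 3.10 for SEMA7A to -3.61 for SEMA3B, and all 3 robos lie to the right of 0.

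EFNB1 and EPHB2, a transmembrane ephrin-B and a receptor for it, were both about 4-fold lower in ThrbCRM1, and EPHB3 was lower as well, while the other EphB receptors and EFNB2 did not pass. In the retina, ephrin-B ligands are known to be most abundant dorsally, and EPHB2 and EPHB3 ventrally. EFNB1 was at 24.1 and 23.6 TPM in the ThrbCRM1 libraries and at 97.5 and 96.2 TPM in the UbiqC libraries. Both UbiqC libraries stood far above both ThrbCRM1 libraries, and each pair lay close together. EFNB1 was 4.27-fold lower in ThrbCRM1, a log2 fold change of -2.09 ± 0.07 (SE, adjusted p = 1.54e-05).

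EPHB2 was at 14.1 and 13.9 TPM in ThrbCRM1 and at 48.9 and 70.1 TPM in UbiqC. The UbiqC libraries differed more from each other than the ThrbCRM1 ones did, without coming near them. Its log2 fold change was -2.05 ± 0.12, or 4.15-fold lower in ThrbCRM1 (adjusted p = 6.77e-05). EPHB3, another EphB receptor, had 13.3 and 11.7 TPM in ThrbCRM1 and 23.4 and 29.9 TPM in UbiqC, with no overlap. EPHB3 fell by 1.14 ± 0.13 on the log2 scale (adjusted p = 0.000857).

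EFNB2, the other ephrin-B found, had 11.5 and 13.7 TPM in ThrbCRM1 and 15.2 and 22.8 TPM in UbiqC. Its libraries did not overlap, but the UbiqC pair was widely spread and the gene missed the threshold at a log2 fold change of -0.67 ± 0.24 (adjusted p = 0.0664). It passed without the lower UbiqC library, A, at -0.91 (adjusted p = 0.0299). EPHB1 was the most abundant EphB receptor in ThrbCRM1, with 55.3 and 51.1 TPM there and 44.9 and 42.1 TPM in UbiqC. All of its libraries were high, the ThrbCRM1 pair slightly more so, and the log2 fold change of 0.24 ± 0.08 narrowly missed the threshold (adjusted p = 0.0538). EPHB1 passed with DESeq2 size factors (adjusted p = 0.0469), with a filter at 5 CPM (0.0352) and with limma on log2 TPM (0.0396 to 0.0445). EPHB6, which lacks kinase activity, had 29.5 and 24.5 TPM in ThrbCRM1 and 23.1 and 28.9 TPM in UbiqC, and these ranges overlapped. Its log2 fold change was 0.01 ± 0.12 (adjusted p = 0.945). Summed over the family, ephrin-B ligands stood at 35.5 and 37.3 TPM in ThrbCRM1 and at 113 and 119 TPM in UbiqC, and EphB receptors at 112 and 101 TPM in ThrbCRM1 and at 140 and 171 TPM in UbiqC.

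**Figure D2:**
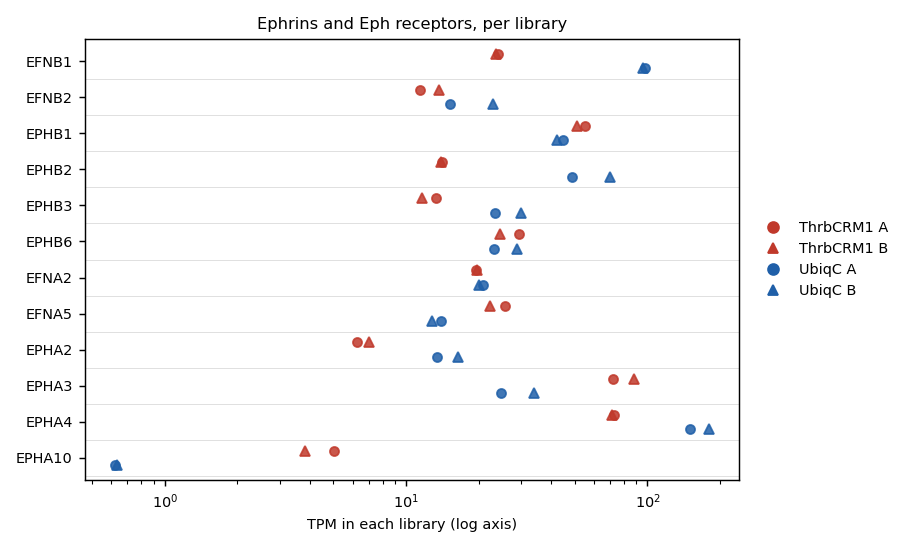
TPM in each library (log axis) of the ephrins and of the Eph receptors described in full, with ThrbCRM1 libraries in red above UbiqC libraries in blue, circles for letter A and triangles for letter B. EFNB1, EPHB2 and EPHA4 show blue points far to the right of red ones, EPHA3 and EPHA10 show the opposite, and EFNA2 and EPHB6 overlap or nearly so.

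EphA receptors split between the populations. EPHA3 and EPHA10 were higher in ThrbCRM1, EPHA4, EPHA2 and EPHA5 were lower, and 4 others did not pass. EPHA3, which binds ephrin-A ligands and marks the temporal side of the chick retina, had 72.3 and 87.8 TPM in ThrbCRM1 and 24.7 and 34.0 TPM in UbiqC. It was the most abundant guidance gene of the ThrbCRM1 population by mean TPM and was 2.57-fold higher there, a log2 fold change of 1.36 ± 0.14 (adjusted p = 0.000633). EPHA4, which binds both classes of ephrin, had 72.8 and 71.2 TPM in ThrbCRM1 and 149.8 and 179.7 TPM in UbiqC, where it was the most abundant guidance gene. It fell by 1.26 ± 0.08 on the log2 scale (adjusted p = 9.51e-05). EPHA3 and EPHA4 were thus close together in ThrbCRM1, at means of 80.0 ± 11.0 and 72.0 ± 1.12 TPM (SD, n = 2), but far apart in UbiqC, at 29.4 ± 6.58 and 165 ± 21.1 TPM (SD, n = 2).

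EPHA10, a receptor without kinase activity, had 5.01 and 3.82 TPM in ThrbCRM1 and 0.623 and 0.633 TPM in UbiqC. Its level was low in both populations, yet its log2 fold change of 2.76 ± 0.19 was the greatest of any Eph receptor (6.77-fold, adjusted p = 0.000143). EPHA2 had 6.28 and 6.99 TPM in ThrbCRM1 and 13.4 and 16.3 TPM in UbiqC, with no overlap, and fell by 1.23 ± 0.14 on the log2 scale (adjusted p = 0.000869). EPHA5, a receptor for ephrin-A ligands, had 0.938 and 0.756 TPM in ThrbCRM1 and 1.60 and 1.82 TPM in UbiqC. Its log2 fold change of -1.13 ± 0.23 passed (adjusted p = 0.0100), but not with limma on log2(TPM + 0.1) (adjusted p = 0.0603). EPHA1, EPHA6, EPHA7 and EPHA8 did not pass, with log2 fold changes between -0.46 (EPHA1) and 0.61 (EPHA6) and means of at most 3.37 TPM in either population. EPHA6 had 0.502 and 0.902 TPM in ThrbCRM1 and 0.352 and 0.513 TPM in UbiqC, which overlapped. These values rest on 113 and 105 estimated counts in ThrbCRM1 and 43 and 122 in UbiqC, from libraries of unlike depth. A further 113 estimated counts in ThrbCRM1 A and 1.22 in ThrbCRM1 B fell on EPHA6 transcripts without a gene name in the deposited table. Those are not part of these values, so the overlap and the test cover the named transcripts only.

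Ephrin-A ligands bind EphA receptors and are held on the membrane by a lipid anchor. EFNA5 had 25.7 and 22.3 TPM in ThrbCRM1 and 13.9 and 12.8 TPM in UbiqC. The populations did not overlap, and EFNA5 rose by 0.80 ± 0.10 on the log2 scale in ThrbCRM1 (adjusted p = 0.00118). EFNA2 had 19.5 and 19.6 TPM in ThrbCRM1 and 20.8 and 20.0 TPM in UbiqC, all within a narrow range, at a log2 fold change of -0.11 ± 0.17 (adjusted p = 0.647). Over the 13 Eph receptors of both classes, 2 were higher, 5 were lower and 6 did not pass, and their summed level was 274 and 276 TPM in ThrbCRM1 against 334 and 408 TPM in UbiqC.

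Genes that pattern the retinal axes, and so lie before the Eph and ephrin gradients in development, were measured in the same libraries. Of 18 tested, 2 were higher in ThrbCRM1 (background 20.1%), 10 were lower (background 20.5%) and 6 did not pass, with a median log2 fold change of -0.73, and their summed level was 264 and 244 TPM in ThrbCRM1 and 606 and 691 TPM in UbiqC. ALDH1A1, the dorsal retinoic acid synthesis enzyme, had 44.9 and 41.8 TPM in ThrbCRM1 and 276 and 339 TPM in UbiqC, a log2 fold change of -2.86 ± 0.11 (adjusted p = 1.86e-05). TBX3, a dorsal transcription factor, had 35.7 and 34.1 TPM in ThrbCRM1 and 79.7 and 91.3 TPM in UbiqC, a log2 fold change of -1.35 ± 0.08 (adjusted p = 9.51e-05). The 10 lower genes held both dorsal ones (TBX2, TBX5, BMP2) and ventral ones (VAX1, ALDH1A3), named here after their values were seen. The part of these differences in the Eph and ephrin results was not tested.

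All 3 robos, the receptors for slits, were higher in ThrbCRM1, and so was SLIT1. ROBO2 had 57.9 and 63.1 TPM in ThrbCRM1 and 20.2 and 19.6 TPM in UbiqC. Both pairs were tight and far apart, and ROBO2 was 2.93-fold higher in ThrbCRM1, a log2 fold change of 1.55 ± 0.08 (adjusted p = 5.49e-05). ROBO1 had 25.2 and 31.3 TPM in ThrbCRM1 and 6.73 and 7.34 TPM in UbiqC. It was 3.84-fold higher, a log2 fold change of 1.94 ± 0.13 (adjusted p = 0.000122). ROBO3, known in mammals for letting commissural axons cross the midline, was scarce. It had 2.42 and 1.56 TPM in ThrbCRM1 and 0.164 and 0.552 TPM in UbiqC. With 6 estimated counts in UbiqC A, ROBO3 needed its ThrbCRM1 libraries, where it was higher, to pass the filter on low counts. Its log2 fold change of 2.30 ± 0.49 passed (adjusted p = 0.0121), but without ThrbCRM1 A it was 1.99 and missed the threshold (adjusted p = 0.113). The 3 robos together held 85.5 and 95.9 TPM in ThrbCRM1 and 27.1 and 27.5 TPM in UbiqC.

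SLIT1, a secreted repellent, had 55.3 and 34.2 TPM in ThrbCRM1 and 22.5 and 24.6 TPM in UbiqC. Every ThrbCRM1 value exceeded every UbiqC value, with ThrbCRM1 A well above ThrbCRM1 B. The log2 fold change was 0.87 ± 0.20 (adjusted p = 0.0156), and the call was lost without UbiqC A (adjusted p = 0.064). SLIT2 had 3.28 and 3.91 TPM in ThrbCRM1 and 3.21 and 3.62 TPM in UbiqC, which overlapped (log2 fold change 0.03 ± 0.15, adjusted p = 0.905). SLIT3 stayed below 1 TPM in every library and did not pass (log2 fold change -0.34 ± 0.40, adjusted p = 0.539). The level of slit transcripts in both populations was therefore mostly SLIT1.

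Among netrins, the membrane-anchored netrin-G genes and the scarce NTN3 were higher in ThrbCRM1, and NTN4L was lower. Netrin-G proteins are lipid-anchored and bind partners other than DCC and UNC5 receptors. NTNG2 had 18.1 and 24.8 TPM in ThrbCRM1 and 5.05 and 3.25 TPM in UbiqC, a log2 fold change of 2.38 ± 0.27 (adjusted p = 0.000981). NTNG1 had 10.2 and 11.8 TPM in ThrbCRM1 and 4.27 and 4.54 TPM in UbiqC, a log2 fold change of 1.26 ± 0.14 (adjusted p = 0.000805). Neither gene overlapped between populations. NTN4L, a gene named for its likeness to netrin 4, had 0.858 and 0.475 TPM in ThrbCRM1 and 3.22 and 2.91 TPM in UbiqC, and fell by 2.20 ± 0.28 on the log2 scale (adjusted p = 0.00145). NTN3, a secreted netrin, was near the limit of detection in UbiqC, with 27 estimated counts over both ThrbCRM1 libraries and 4 over both UbiqC libraries. Scaled for depth, the ratio of these sums was 6.79, with an exact 95% interval of 2.37 to 26.7 that covers counting error only. Its ThrbCRM1 libraries alone, where it was higher, carried NTN3 past the filter on low counts. NTN3 passed the test (adjusted p = 0.0169), but not without ThrbCRM1 B (adjusted p = 0.0697) nor with DESeq2 (adjusted p = 0.148).

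UNC5 receptors mediate repulsion by netrins, and most of their transcripts here came from UNC5B, which was lower in ThrbCRM1. UNC5B had 12.5 and 13.6 TPM in ThrbCRM1 and 34.8 and 51.9 TPM in UbiqC. The UbiqC libraries were both high and unequal, and UNC5B fell by 1.80 ± 0.19 on the log2 scale (3.48-fold, adjusted p = 0.000671). UNC5C stayed below 1 TPM in all libraries, at 0.453 and 0.346 TPM in ThrbCRM1 and 0.805 and 0.797 TPM in UbiqC (log2 fold change -1.04, adjusted p = 0.0171). UNC5A ran the other way, at 4.96 and 4.27 TPM in ThrbCRM1 and 2.84 and 2.27 TPM in UbiqC, with a log2 fold change of 0.81 ± 0.21 (adjusted p = 0.0237). Both calls were fragile. UNC5A lost its call with DESeq2 (adjusted p = 0.0559) and without ThrbCRM1 A (0.136), ThrbCRM1 B (0.0577) or UbiqC B (0.0899). UNC5C lost its call with DESeq2 (adjusted p = 0.0661), with unfiltered limma on log2(TPM + 1) (0.0517), and without ThrbCRM1 A (0.0527), ThrbCRM1 B (0.0784) or UbiqC A (0.0574). UNC5D had 0.695 and 0.352 TPM in ThrbCRM1 and 1.33 and 0.721 TPM in UbiqC, and did not pass (log2 fold change -0.97 ± 0.42, adjusted p = 0.118), though it did without UbiqC B (log2 fold change -1.38, adjusted p = 0.0268). A further 96.0 estimated counts in UbiqC B fell on UNC5D transcripts that carry no gene name and lie outside these values. UNC50, matched by its letters alone, had 52.6 and 51.3 TPM in ThrbCRM1 and 50.9 and 44.9 TPM in UbiqC and did not pass (adjusted p = 0.680).

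Semaphorins, the largest of these families with 18 genes, showed both the greatest increase and the greatest decrease among all 58. Their calls were 6 higher, 6 lower and 6 not passed, and their summed level was 255 and 256 TPM in ThrbCRM1 and 269 and 280 TPM in UbiqC. SEMA7A, a lipid-anchored semaphorin that binds integrins and PLXNC1, had 50.3 and 58.9 TPM in ThrbCRM1 and 5.67 and 6.08 TPM in UbiqC. It was 8.59-fold higher in ThrbCRM1, a log2 fold change of 3.10 ± 0.11 (adjusted p = 1.78e-05). SEMA3B, a secreted class 3 semaphorin, had 2.21 and 1.75 TPM in ThrbCRM1 and 22.1 and 25.1 TPM in UbiqC. It was 12.2-fold lower in ThrbCRM1, a log2 fold change of -3.61 ± 0.15 (adjusted p = 2.24e-05). For both genes the libraries of a population lay close together and the populations far apart.

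SEMA5B, a transmembrane semaphorin with thrombospondin repeats that repels retinal neurites in mouse, had 21.8 and 16.7 TPM in ThrbCRM1 and 77.3 and 85.8 TPM in UbiqC. It was the most abundant semaphorin of the UbiqC population and fell by 2.15 ± 0.13 on the log2 scale in ThrbCRM1 (4.44-fold, adjusted p = 7.23e-05). SEMA6D, a transmembrane ligand of PLXNA1, had 24.7 and 24.1 TPM in ThrbCRM1 and 8.73 and 10.4 TPM in UbiqC. It rose by 1.24 ± 0.11 on the log2 scale (2.36-fold, adjusted p = 0.000435). Semaphorins of one class did not move as one. In class 3, SEMA3A (log2 fold change 0.75) and SEMA3C (1.17) were higher, and SEMA3B, SEMA3F (-1.02) and SEMA3D (-1.43) were lower. In class 4, SEMA4B (0.56) and SEMA4C (0.88) were higher and SEMA4D (-0.49) was lower. In class 6, SEMA6A (-1.21) was lower where SEMA6D was higher.

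Some of these semaphorin calls were lost when 1 library was left out, a setting that also lowered the number of calls over all genes. SEMA3C lost its call without ThrbCRM1 A (log2 fold change 0.94) or UbiqC A (0.85). SEMA3D lost it without ThrbCRM1 A (-1.29) and SEMA4D without ThrbCRM1 B (-0.39). The 6 semaphorins that did not pass were SEMA3DL, SEMA3G, SEMA4G, SEMA5A, SEMA6B and SEMA6CL. Their log2 fold changes ran from -0.49 for SEMA3G to 0.70 for SEMA5A, and SEMA6B was the most abundant of them at 5.95 ± 1.55 TPM in ThrbCRM1 and 6.52 ± 1.04 TPM in UbiqC (SD, n = 2). SEMA5A passed without UbiqC B, at a log2 fold change of 1.02 (adjusted p = 0.0211), and with a filter at 5 CPM (adjusted p = 0.0479).

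The neuropilins, which form the ligand-binding part of class 3 semaphorin receptors, moved apart. NRP2, the preferred neuropilin of SEMA3F, had 3.84 and 5.23 TPM in ThrbCRM1 and 12.0 and 12.7 TPM in UbiqC. It fell by 1.59 ± 0.16 on the log2 scale (3.01-fold, adjusted p = 0.000588). NRP1, the neuropilin of SEMA3A, had 20.0 and 12.7 TPM in ThrbCRM1 and 9.28 and 9.65 TPM in UbiqC. ThrbCRM1 A alone was markedly high, and the log2 fold change of 0.74 ± 0.20 (adjusted p = 0.0288) became 0.37 without it (adjusted p = 0.0893). The call was also lost without UbiqC A (adjusted p = 0.0905) and with unfiltered limma on log2(TPM + 1) (adjusted p = 0.0609).

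Plexins, the signalling receptors of semaphorins, numbered 1 higher, 3 lower and 2 not passed. PLXNB1, the receptor of SEMA4D, had 16.8 and 14.5 TPM in ThrbCRM1 and 37.0 and 48.0 TPM in UbiqC. It fell by 1.50 ± 0.13 on the log2 scale (2.83-fold, adjusted p = 0.000291). PLXNA1 had 46.2 and 41.4 TPM in ThrbCRM1 and 58.5 and 65.7 TPM in UbiqC, and PLXND1 had 0.809 and 0.981 TPM in ThrbCRM1 and 1.51 and 2.19 TPM in UbiqC. Neither overlapped, and PLXNA1 fell by 0.56 ± 0.08 (adjusted p = 0.00230) and PLXND1 by 1.12 ± 0.24 (adjusted p = 0.0122) on the log2 scale. The PLXND1 call was lost without ThrbCRM1 A (adjusted p = 0.105) and in all 3 limma settings (adjusted p between 0.0507 and 0.0698).

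PLXNB2, a receptor of SEMA4C, had 23.4 and 27.1 TPM in ThrbCRM1 and 15.4 and 19.2 TPM in UbiqC. It rose by 0.48 ± 0.13 on the log2 scale (adjusted p = 0.0282), but the call was lost without ThrbCRM1 A (adjusted p = 0.063), without ThrbCRM1 B (0.159) and without UbiqC A (0.107). PLXNA2 was the most abundant plexin in ThrbCRM1, with 58.4 and 49.3 TPM there and 44.7 and 45.3 TPM in UbiqC, and did not pass (log2 fold change 0.20 ± 0.08, adjusted p = 0.101). PLXNC1, the plexin of SEMA7A, had 7.14 and 3.96 TPM in ThrbCRM1 and 3.97 and 4.32 TPM in UbiqC. ThrbCRM1 A stood above the other libraries, ThrbCRM1 B lay below both UbiqC libraries, and the gene did not pass (log2 fold change 0.38 ± 0.25, adjusted p = 0.283). Without ThrbCRM1 B it did, at a log2 fold change of 0.70 (adjusted p = 0.0207).

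**Figure D3:**
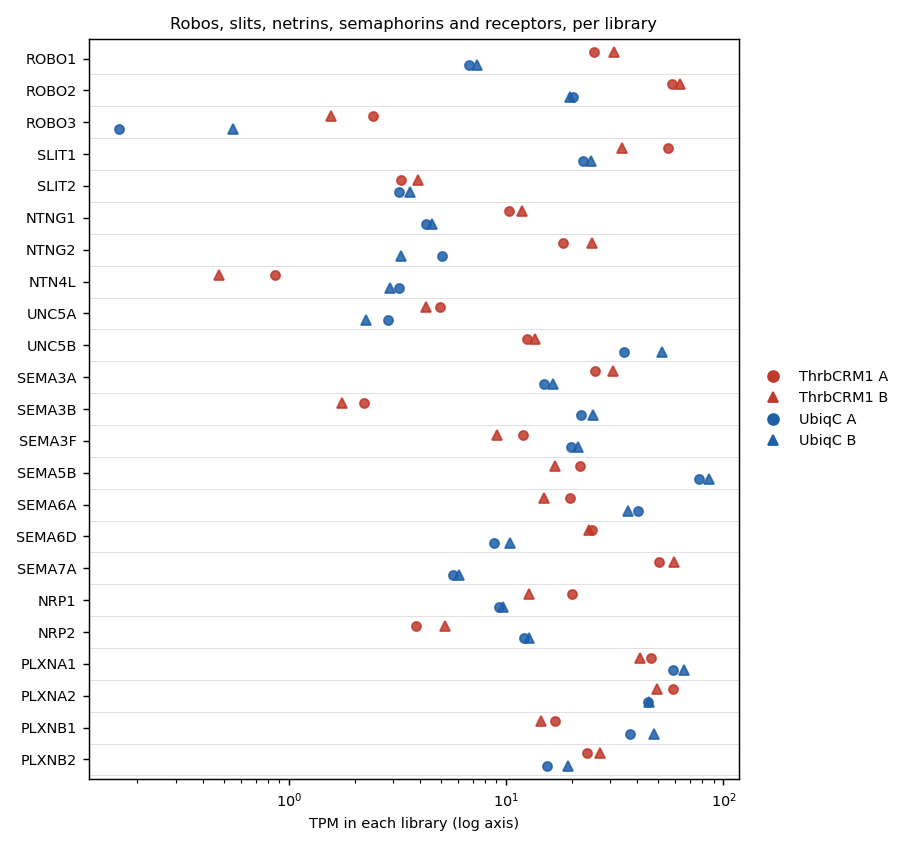
TPM in each library (log axis) of slits, robos, netrins, UNC5 receptors, semaphorins, neuropilins and plexins described in the text, with ThrbCRM1 libraries in red above UbiqC libraries in blue, circles for letter A and triangles for letter B. Red points lie to the right of blue ones for ROBO1, ROBO2, NTNG1, NTNG2 and SEMA7A, and to the left for SEMA3B, SEMA5B, UNC5B, NRP2 and PLXNB1.

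Ligands were set beside receptors known to bind them, in 24 pairs that were drawn up from textbook knowledge after the values had been seen and that share genes, so they are a description. The list is not complete, and the counts depend on which pairs were listed. EFNA5 with EPHA5 and with EPHA2, called in opposite directions, and with EPHA10, called in the same direction, were among those left out. SEMA3B, the greatest decrease, and EPHB1, the most abundant EphB receptor in ThrbCRM1, were in no pair. No netrin was paired with a UNC5 receptor. The share of same-direction pairs expected among called genes was not worked out, so the counts show no tendency of ligands and receptors to move together. In 11 of the listed pairs both genes were called in the same direction. Those with both genes higher in ThrbCRM1 were SLIT1 with ROBO1 and with ROBO2, EFNA5 with EPHA3, SEMA3A and SEMA3C with NRP1, and SEMA4C with PLXNB2. Those with both genes lower in ThrbCRM1 were EFNB1 with EPHB2 and with EPHB3, SEMA3F with NRP2, SEMA4D with PLXNB1, and SEMA5B with PLXNA1. In 3 pairs the genes were called in opposite directions: EFNA5 was higher and EPHA4 lower, SEMA3C higher and NRP2 lower, and SEMA6D higher and PLXNA1 lower. In the other 10 pairs at least 1 gene did not pass, among them SEMA7A with PLXNC1, SLIT2 with ROBO1 and ROBO2, and EFNB2 with EPHB2, EPHB3 and EPHA4.

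**Figure D4:**
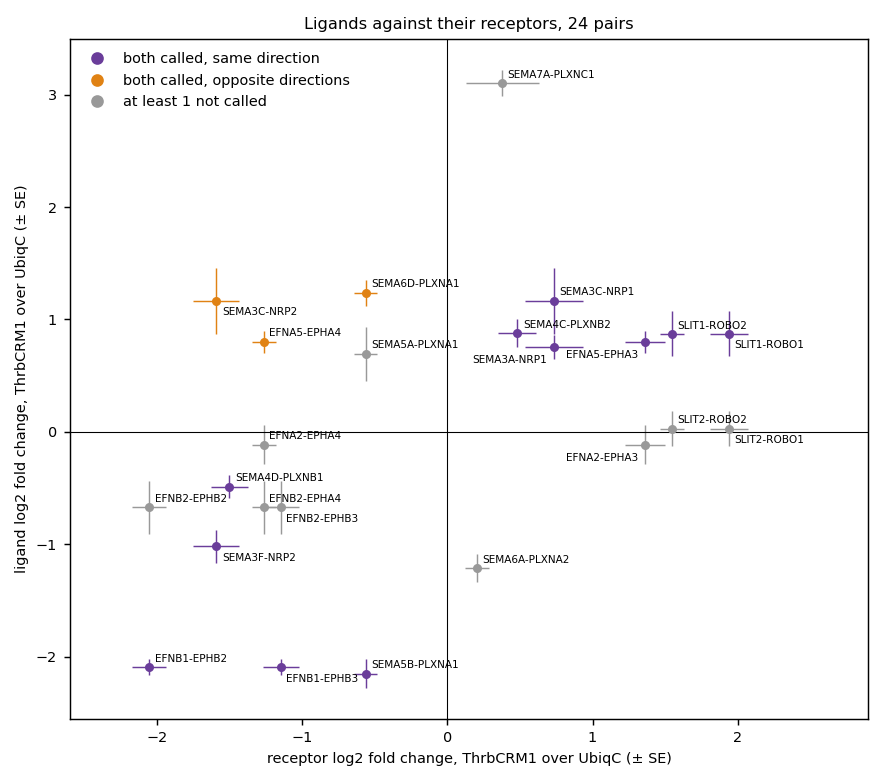
Log2 fold change (ThrbCRM1 over UbiqC) of each ligand (vertical axis) against that of a receptor known to bind it (horizontal axis), with standard errors, for 24 pairs. Purple points are the 11 pairs called in the same direction, orange points the 3 called in opposite directions, and grey points the 10 with at least 1 gene not called.

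The order of levels differed between the populations. By mean TPM with its SD over 2 libraries, and leaving out UNC50, the most abundant guidance genes of ThrbCRM1 were EPHA3 (80.0 ± 11.0), EPHA4 (72.0 ± 1.12), ROBO2 (60.5 ± 3.70), SEMA7A (54.6 ± 6.10), PLXNA2 (53.8 ± 6.42) and EPHB1 (53.2 ± 2.99). EPHA3 and EPHA4 overlapped in their libraries, as did each neighbour from ROBO2 down to EPHB1, and SLIT1 followed at 44.8 ± 14.9 TPM. In UbiqC the order was EPHA4 (165 ± 21.1), EFNB1 (96.8 ± 0.938), SEMA5B (81.6 ± 6.04), PLXNA1 (62.1 ± 5.11), EPHB2 (59.5 ± 15.0), PLXNA2 (45.0 ± 0.399) and EPHB1 (43.5 ± 1.93). There EPHA4, EFNB1 and SEMA5B stood clear of each other, whereas PLXNA1 overlapped with EPHB2, and PLXNA2 with EPHB1. At the low end, 13 of the 58 genes had a mean below 1 TPM in ThrbCRM1 and 11 in UbiqC, with 9 below it in both.

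Most guidance genes had the same leading transcript in both populations. Of 31 guidance genes with at least 5 TPM in both populations, 23 were listed with several transcripts, and by mean share 20 of these had the same leading transcript in both, 18 of them in every library. The 2 exceptions were EPHB2, where ThrbCRM1 B was led by another transcript, and SEMA6A, where a transcript of 6180 bases led in both A libraries and one of 6687 bases in both B libraries. By mean share, EPHB3, EPHB6 and SEMA6B had different leading transcripts in the 2 populations, but only EPHB3 did so in every library. For EPHB6, a transcript of 3971 bases led in both A libraries and one of 4168 bases in both B libraries. SEMA6B had the same leading transcript in ThrbCRM1 A as in UbiqC. For EPHB3, a transcript of 4073 bases took 51.5% and 52.4% of the gene's TPM in ThrbCRM1 and 43.1% and 25.4% in UbiqC. For SEMA6B, a transcript of 3751 bases took 49.5% and 1.31% in ThrbCRM1 and 75.9% and 70.6% in UbiqC, so that the ThrbCRM1 libraries differed widely from each other. These shares are estimates that divide reads among overlapping transcripts, and they were not tested.

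Genes that act with or after these receptors were listed apart from the 58: co-receptors, kinases and cytoskeletal effectors of growth cones. Of 61 listed, 53 were found and tested, and 22 were higher in ThrbCRM1, 9 were lower and 22 did not pass, beside the background shares of 20.1% and 20.5%. Their median log2 fold change was 0.33, against -0.00 over all tested genes. DRAXIN, a secreted guidance protein that binds netrin receptors, had 32.9 and 35.2 TPM in ThrbCRM1 and 4.71 and 3.86 TPM in UbiqC, a log2 fold change of 2.97 ± 0.15 and the greatest increase of the list. The next increases among genes of at least 5 TPM were those of TIAM2 (log2 fold change 1.38), VAV2 (1.22), TIAM1 (1.11) and MCF2L (1.09). NEO1, a receptor for netrins and repulsive guidance molecules, rose by 0.73 on the log2 scale, and its ligands RGMA and RGMB rose by 0.74 and 0.49, all 3 named after their values were seen.

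PTPRZ1, a receptor tyrosine phosphatase, fell furthest, to 6.02 and 4.91 TPM in ThrbCRM1, against 55.0 and 61.3 TPM in UbiqC (log2 fold change -3.51 ± 0.10). ABLIM1, an actin-binding protein of growth cones, had 6.86 and 4.74 TPM in ThrbCRM1 and 27.7 and 37.0 TPM in UbiqC (log2 fold change -2.51). PAK1, a kinase activated by Rac and Cdc42, had 25.5 and 21.2 TPM in ThrbCRM1 and 82.4 and 79.2 TPM in UbiqC (log2 fold change -1.86). None of these 3 genes overlapped between the populations. GAP43, a growth cone protein, fell by 1.46 on the log2 scale, and SRGAP1, a GTPase regulator that binds robos, by 0.98. Of its relatives, singled out after their values were seen, SRGAP3 fell by 0.78 and SRGAP2 rose by 0.26, so these robo-binding regulators did not move as one.

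**Figure D5:**
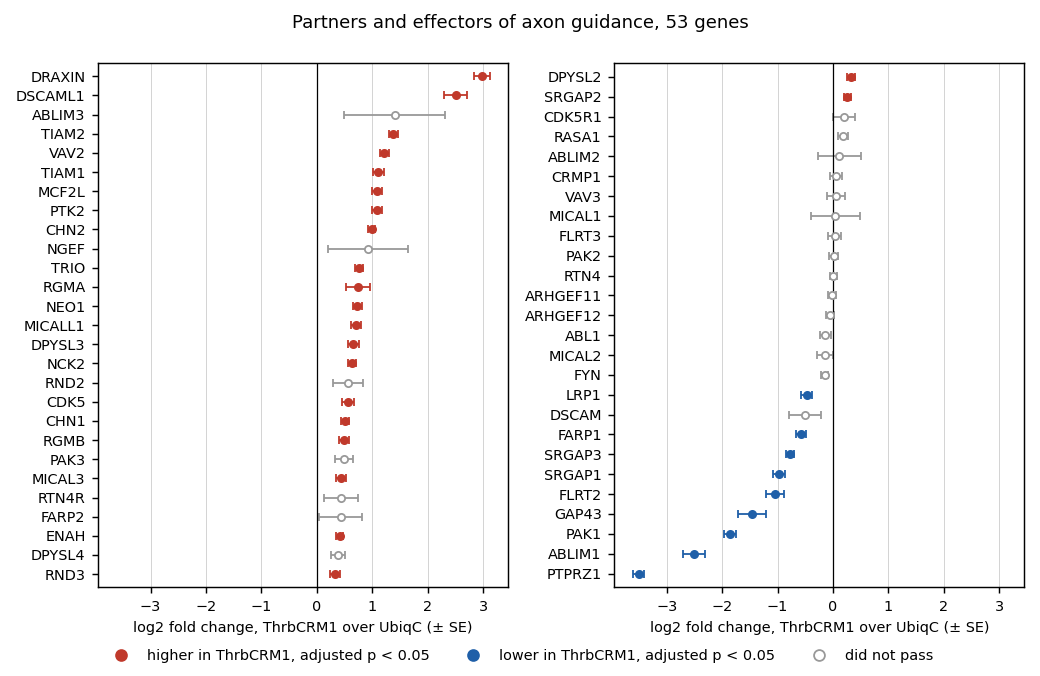
Log2 fold change (ThrbCRM1 over UbiqC, horizontal axis) with its standard error for 53 partners and effectors of axon guidance, in falling order. Red points are higher in ThrbCRM1 (22 genes), blue points lower (9 genes), and open grey points did not pass.

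Markers of other cell types also differed between the populations. Counts of called markers stand beside the background of 20.1% of all tested genes higher and 20.5% lower. Among 19 ganglion cell markers, 7 were higher in ThrbCRM1, 5 were lower and 7 did not pass, with a median log2 fold change of -0.24. Their sums ran the other way, at 2510 and 2358 TPM in ThrbCRM1 and 1258 and 1146 TPM in UbiqC, and their most abundant gene was ATOH7, at 840 and 874 TPM in ThrbCRM1 and 252 and 245 TPM in UbiqC. The smallest p-values of the list were those of ISL2 (log2 fold change 5.84) and ATOH7 (1.73, also in the list of restricted progenitor markers), while the 5 lower markers, named after their values were seen, were ISL1 (-1.83), EBF3 (-1.51), GAP43 (-1.46), CNTN2 (-1.39) and RBPMS (-1.18).

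Of 19 listed markers of endothelial, perivascular and mesenchymal cells, 13 were found and 12 tested. Of these, 7 were lower in ThrbCRM1 and 1 was higher, with sums of 28.4 and 30.8 TPM in ThrbCRM1 and 88.4 and 110 TPM in UbiqC, led by KDR (log2 fold change -3.45) and TAGLN (-3.33). Of 10 listed markers of pigment epithelium, 8 were found and 7 tested, with 2 higher and 1 lower, and sums between 17.9 and 21.6 TPM over all 4 libraries. MITF was at -1.35 and DCT at 0.96 on the log2 scale, and TYRP1, named after its values were seen, was at 3.44 from levels below 2 TPM. Of 11 listed lens markers, 7 were found and 5 tested, with 1 higher (BFSP1, 2.11) and 2 lower (among them BFSP2, -2.22), and sums between 11.0 and 15.0 TPM. Only 3 of 12 listed markers of blood and immune cells were found, with sums of 6.96 and 6.45 TPM in ThrbCRM1 and 5.01 and 3.33 TPM in UbiqC, PTPRC at 1.05 and TAL1 at -3.10. No marker that was found was at 0 in all 4 libraries. Markers with no named row, CDH5, VWF, CSF1R, SPI1 and the globins among them, were not analysed here, and the part of these cell types in the guidance gene results was not tested.

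The authors' deposited table, which compares the same libraries with sleuth, called 39 of the 58 genes at a q below 0.05, of which 19 were higher in ThrbCRM1 and 20 lower, where it called 39.9% of its 18294 genes. The authors' deposited table and the edgeR test shared 36 called genes, all in the same direction. NRP1 and NTN3 were called by edgeR only, and EPHA6, EPHB1 and UNC5D by the authors' deposited table only. Both tests used the same libraries, so this is no independent check. Across 13 alternative settings of the test, 26 of the 38 called genes kept their call in every setting in which they could be tested, EFNB1, EPHB2, ROBO2, ROBO1, SEMA7A and SEMA3B among them.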

How the data were processed

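PolyA RNA was measured in 4 libraries, 2 of ThrbCRM1 and 2 of UbiqC cells, grouped by their titles. Per the submitters' processing notes, the tools were kallisto and sleuth and the build galGal5, and their versions are not given in the sources used here. Deposited estimated counts and TPM per transcript came from kallisto, and the deposited transcript lengths, in bases, were in the same tables. The authors' deposited comparison holds a p-value, a q-value and a natural log effect for each gene, with a minus sign where ThrbCRM1 is higher. A deposited transcript table with 6 per-sample columns of its own served only to name genes. Sheets of cell cycle genes, mean TPM and read classes were not used.

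Of 57401 transcripts, 35667 carried a gene name and held 99.80% to 99.83% of counts. Of 21 symbols stored as dates, 20 were named through the RefSeq gene table (bGalGal1.mat.broiler.GRCg7b), used for names only, since its build differs from galGal5. Counts were summed by gene and rounded. The reporters EGFP and TdTomato were not taken out before the fit. Reads shared by relatives, such as NTN4L, SEMA3DL and SEMA6CL, could be divided wrongly. Library strand was not given in the sources used here.

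Testing used edgeR 4.0.16 (R 4.3.3): TMM factors of 0.978 to 1.013, the filterByExpr rule at its minimum of 10 counts, quasi-likelihood F tests with Benjamini-Hochberg adjustment over 16774 genes. It had 2 residual degrees of freedom, and the common coefficient of variation was 10.6%. Standard errors were worked back from the test: each is the absolute log2 fold change divided by the square root of its F statistic. The edgeR test was also run on simulated counts that gave every gene the same dispersion. That run cannot show how the test behaves where spread differs between genes. Replicates differed beyond counting noise (ThrbCRM1 pair, chi-square of 16.1 per degree of freedom; UbiqC pair, 11.0). Intervals cover counting error only. There were 13 alternatives, with DESeq2 1.42.0, limma 3.58.1 (pseudocounts 1 and 0.1), other filters, length offsets and each library left out.

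Per-library values were given for EFNB1, EPHB2 and ROBO2. They were also given for up to 4 genes with the smallest p in each family and for its most abundant gene. EPHA5, EPHA6 and PLXNC1 had them outside that rule, and any other gene was named by its call. Partners were named as the 5 greatest called changes each way with a mean of at least 5 TPM. Marker lists were named by their 2 smallest p, apart from the 2 progenitor lists, which were given without gene names. The genes, lists and pairs were chosen with earlier results of these data known.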

Additional observations from a re-analysis of the deposited data

Results flagged for a closer look

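Transcripts of PLXNA4, an A-class plexin, are listed without a gene name in the deposited table and so were not among the 58 genes. They held 13.0 and 5.71 estimated counts in ThrbCRM1 A and B, a mean of 9.37, and 0 and 2.05 in UbiqC A and B. The signal was singled out because it lies in data that no comparison used and is above the UbiqC level. The difference was not tested, and each count is small.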

How the results depend on the processing

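Over the 13 alternatives, guidance genes called higher in ThrbCRM1 numbered 13 to 22 against 19, and those called lower 16 to 21 against 19. Partners and effectors called higher numbered 15 to 25 against 22, and lower 8 to 10 against 9. With 1 library left out, calls over all tested genes numbered 3843 (without ThrbCRM1 A) to 6174 (without UbiqC B), against 6819, and the lone library left was assumed to vary like the others. Of single-gene values recomputed, 658 kept their direction and side of the threshold, 28 lost it, 15 gained it and 17 turned direction. Those that turned belonged to 8 genes that did not pass in the main test. Leaving out 1 library gave log2 fold changes from -0.0047 to 0.32 for EPHA7, -0.13 to 0.17 for EPHB6, -0.10 to 0.70 for PLXNC1, -0.13 to 0.10 for SEMA4G, -0.44 to 0.057 for SEMA6B, -0.37 to 0.28 for SEMA6CL, -0.12 to 0.17 for SLIT2 and -0.048 to 0.17 for UNC50. EPHB6 also turned with transcript length offsets (-0.00016), and SEMA4G with limma on log2(TPM + 1), with and without a filter (0.029), and on log2(TPM + 0.1) (0.037). The cause was not tested. With the letter as a replicate block, 8336 genes were called, 22 guidance genes higher and 21 lower, and 25 partners higher and 9 lower. That block added EFNB2, EPHB1, PLXNA2, SEMA5A and UNC5D to the calls. The labels do not say whether same-lettered libraries belong together. The A minus B differences of the populations had a correlation of 0.168. The main test assumed no pairing, and whether the letters mark one cannot be told from the labels. No scaling moved the median of all genes by more than 0.046 on the log2 scale. Depth limits NTN3 most, which had 4 counts over both UbiqC libraries.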

Other observations

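Other guidance genes were named only in the RefSeq gene table and lie outside the named rows of the deposited table. NTN1, the netrin that attracts commissural axons, had 4 and 3 estimated counts in ThrbCRM1 and 5 and 3 in UbiqC. SEMA3E, the ligand of PLXND1, had 1 and 1 in ThrbCRM1 and 1 and 2 in UbiqC. NTN4, a secreted netrin found in basement membranes, had 5 and 1 in ThrbCRM1 and 11 and 38 in UbiqC. ROBO4, a robo of endothelial cells, had 1.07 and 2.22 in ThrbCRM1 and 0 and 0 in UbiqC. Transcripts without a gene name also held part of UNC5D, at 0 and 0 in ThrbCRM1 and 0.251 and 96.0 in UbiqC. These values were not tested and are in no comparison.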
